A study of Mus musculus with 24 samples.

Results

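Livers of 4 male Erfe-/- mice collected 24 h after bleeding were set against livers of 4 male Erfe-/- mice collected at 0 h, across all genes that the arrays could measure. The comparison uses 8 of the 24 arrays of the series. The other liver group, 4 mice at 48 h, entered only to estimate the spread and as a later reference. All mice carry the same loss of Erfe, controls included, so no difference described here can be assigned to the genotype. Blood was drawn by retro-orbital puncture, and a mouse gave 1 liver array. The labels call the 0 h mice controls. The age and strain of the mice are not given in the sources used here.

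Erfe encodes erythroferrone, a hormone that red cell precursors release after blood loss and that lowers the liver's output of hepcidin, the hormone that blocks iron release into plasma. The liver also makes most plasma proteins, stores and releases sugar, builds fat from surplus carbohydrate, makes cholesterol and bile acids, and clears drugs. Many of its genes differ between the sexes under the control of growth hormone. The comparison asks which of these processes differ a day after bleeding when erythroferrone is missing.

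Each level given is the log2 of a probe's signal after division by its array's 75th percentile, so a difference of 1 is a doubling. The divisor ranged from 381.55 to 444.2 intensity units over the 8 arrays. The 2 probes for Erfe, on chromosome 1 at 93270468 to 93270527 and 93267977 to 93268036 (mm9), were not well above background on any of the 12 liver arrays. The deleted stretch is not given in the sources used here, so this does not test the labels. All 14 hepatocyte markers were measured, and their summed signal was 8750 to 10181 times the array's 75th percentile.

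Replicates 1 and 2 at 24 h stood apart from the other liver arrays. Over the genes tested, the Spearman correlation of 24 h replicate 1 with the 10 other arrays was 0.980 to 0.985, and that of 24 h replicate 2 was 0.980 to 0.988. The 10 other arrays correlated with each other at 0.985 to 0.993, and the 2 arrays that stood apart correlated with each other at 0.989. Their positions on the first principal component, which held 24.3% of the variance, were 41.8 and 39.6, while the other 10 arrays lay between -25.95 and 5.43. The arrays lie on 3 slides: 24 h replicate 1 shares a slide with 0 h replicates 1 and 2, 24 h replicate 2 shares one with 0 h replicate 3, and 24 h replicates 3 and 4 share one with 0 h replicate 4. Differences that moved most without the 2 arrays are also given without them, and the main list medians are given within slides.

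No gene passed the test at 24 h. Of 19649 genes tested with limma, 0 (0%) had a Benjamini-Hochberg adjusted p under 0.05, and the smallest adjusted p was 0.321. At an unadjusted p under 0.05, 972 genes (4.95%) were higher and 1174 (5.97%) lower at 24 h. The 4 arrays at 24 h all lay above the 4 at 0 h for 448 genes (2.28%) and all below for 630 (3.21%). These shares of all genes are the background for the list counts below. The median difference over all genes was -0.02. The difference between 48 h and 24 h likewise called 0 genes (0%) in limma, with 1499 at an unadjusted p under 0.05. Every difference that follows is therefore a measured value of these arrays and not a called change. An exact two-sided permutation test of 4 against 4 arrays cannot give a p below 0.0286, and that is its value for each gene described as having groups that did not overlap.

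Without 24 h replicates 1 and 2, 644 genes (3.28%) were higher and 455 (2.32%) lower at an unadjusted p under 0.05. Of the 2146 genes at that level with all arrays, 544 were also at it in the same direction without the 2 arrays. The median SD within a group was 0.15 at 0 h and 0.17 at 24 h, and the median standard error of a difference was 0.12. Among the 18294 genes above background on all 8 arrays, 122 differed by at least 2-fold, and in 33 of these the groups did not overlap, 15 higher and 18 lower.

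Hcn3 had the smallest p of all genes. Hcn3, a pacemaker-type ion channel gene, was measured at chromosome 3, 88950072 to 88950131 (mm9). Its levels were 1.25, 1.86, 1.45 and 1.86 at 0 h and 0.56, -0.07, -0.05 and 0.63 at 24 h, a difference of -1.33 ± 0.21 (SE; limma p = 5.88e-05, exact permutation p = 0.0286, adjusted p = 0.321). Every array at 24 h was below every array at 0 h, and without replicates 1 and 2 the difference was -1.31. Ifitm1, an interferon-inducible membrane protein gene, was at 1.66 ± 0.19 (SD, n = 4) at 0 h and 2.33 ± 0.13 at 24 h. Rgs5, a pericyte gene that dampens G-protein signalling, was at -0.57 ± 0.36 and 0.45 ± 0.18. Crls1, which makes the mitochondrial lipid cardiolipin, was at 1.59 ± 0.10 and 1.96 ± 0.07. Ppm1b, a protein phosphatase gene, was at 5.30 ± 0.03 and 4.89 ± 0.06, although a second probe for it differed by only -0.06. The groups of these 4 genes did not overlap, and without the 2 arrays the differences were 0.62 for Ifitm1, 0.87 for Rgs5, 0.41 for Crls1 and -0.39 for Ppm1b.

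The largest difference downwards among genes above background on all 8 arrays with groups apart was that of Nat8f5, an N-acetyltransferase family gene. Its levels were 3.75, 3.59, 3.94 and 3.86 at 0 h and 1.27, 1.43, 2.42 and 3.03 at 24 h. The difference was -1.75 ± 0.35 (SE), a 3.36-fold lower level, and -1.06 without replicates 1 and 2. The largest upwards was that of Atp6v0d2, a subunit of the proton pump of osteoclasts and macrophages, at -0.78, -1.92, -1.48 and -2.37 at 0 h and 0.98, 0.64, -0.63 and -0.74 at 24 h. That difference was 1.70 ± 0.42 (SE) and 0.96 without the 2 arrays. A2ml1, an alpha-2-macroglobulin-like protease inhibitor gene, was higher by 1.07 ± 0.23 (SE) and by 0.77 without them.

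**Figure D1:**
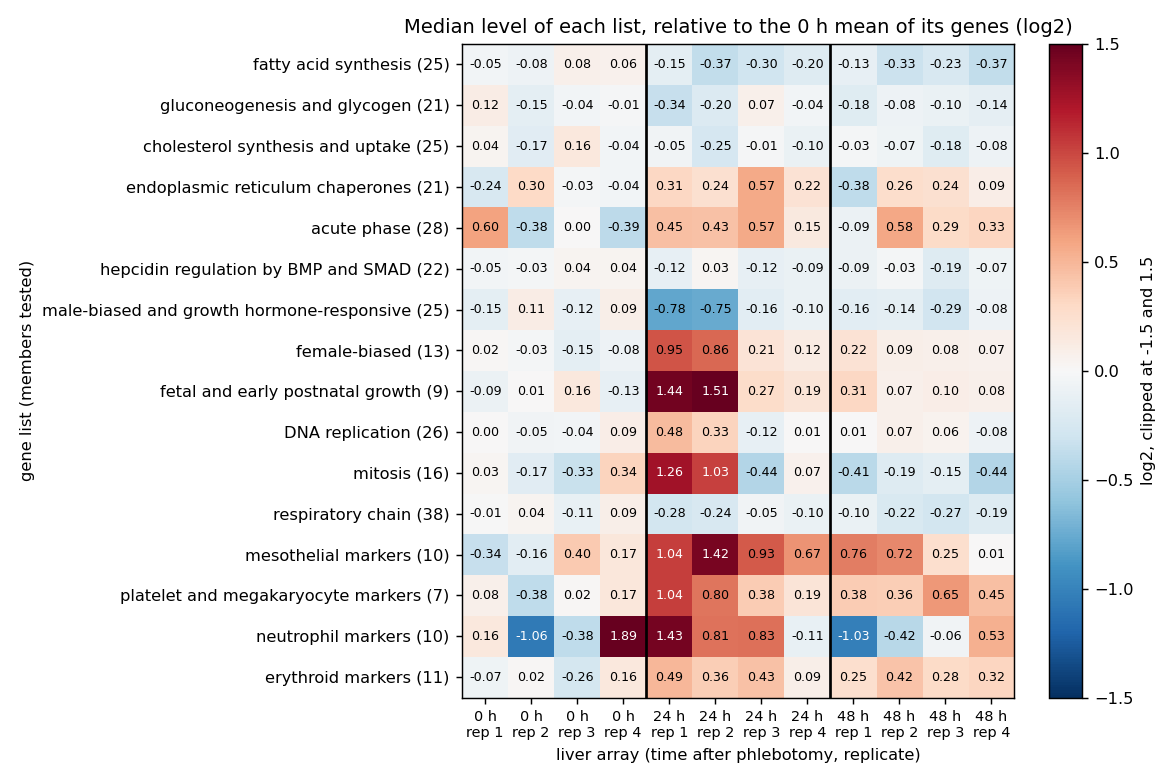
Median level of 16 gene lists (rows, members tested in brackets) on each of the 12 liver arrays (columns), as log2 relative to the mean of each gene at 0 h. The fatty acid synthesis row is below 0 on all 4 arrays at 24 h, while the sex-biased, fetal growth and mitosis rows reach their most extreme values on 24 h replicates 1 and 2.

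Part of the genes that turn sugar into fat were lower at 24 h. Of 25 fatty acid synthesis genes, 10 were lower and 0 higher at an unadjusted p under 0.05, against 5.97% and 4.95% of all genes, and 4 had groups that did not overlap, all lower. The list's median difference was -0.18 against -0.02 over all genes. The list medians of the 4 arrays at 24 h were -0.15, -0.37, -0.30 and -0.20, below the range of -0.08 to 0.08 at 0 h. Within the 3 slides the median difference was -0.07, -0.46 and -0.26. Without replicates 1 and 2, 6 of the 25 were lower and 0 higher, with a median of -0.26. The fatty acid synthesis count was 5 without 0 h replicate 3 or without 0 h replicate 4, and 6 without 24 h replicate 2 or without 24 h replicate 3.

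Me1, the malic enzyme that supplies reducing power for fat synthesis, had the lowest p of that list. Its probe at chromosome 9, 86475077 to 86475136 (mm9), read 4.05, 4.09, 4.42 and 4.44 at 0 h and 2.41, 1.57, 3.20 and 3.35 at 24 h. The difference was -1.62 ± 0.37 (SE; limma p = 0.00106, exact permutation p = 0.0286), a 3.07-fold lower level, and the 2 arrays that stand apart held the lowest values. Without them it was -0.98, and a second probe for Me1 gave -1.58. Acacb, an acetyl-CoA carboxylase that also restrains fat burning, was at 4.41 ± 0.26 and 3.65 ± 0.33, a difference of -0.76 ± 0.20 (SE). The 2 dimmer probes for Acacb differed by -0.12 and -0.01, so its difference rests on 1 probe. Acss2, which makes acetyl-CoA from acetate, was at 5.93 ± 0.23 and 5.15 ± 0.39, with its 3 other probes between -0.73 and 0.15, and its difference went from -0.78 to -0.48 without replicates 1 and 2. Scd1, which desaturates newly made fatty acids, was at 8.07 ± 0.05 and 7.73 ± 0.13. The groups of these 4 genes did not overlap. Thrsp, a carbohydrate-induced lipogenic gene, was at 5.63 ± 0.33 and 4.92 ± 0.35, and its groups overlapped because 24 h replicate 1 read 5.37. Fasn, the fatty acid synthase itself, was at 7.12 ± 0.29 and 6.83 ± 0.29 with overlapping groups (limma p = 0.114, exact permutation p = 0.229). Its difference went from -0.29 to -0.49 without replicates 1 and 2, and it was chosen after its values were seen.

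Enzymes that feed sugar into this route were also low. Pklr, liver pyruvate kinase, the last step of glycolysis, was measured at chromosome 3, 88948907 to 88949425 (mm9). It read 0.07, 0.17, 0.41 and 0.67 at 0 h and -0.67, -1.21, -0.93 and -0.46 at 24 h. All 4 later arrays were below all 4 earlier ones, with a difference of -1.15 ± 0.21 (SE; limma p = 0.000215, exact permutation p = 0.0286), a 2.21-fold lower level, and -1.02 without replicates 1 and 2. Within slides it was -0.79, -1.61 and -1.36. Hcn3, the gene with the smallest p above, is the next gene after Pklr in the RefSeq gene table, and the starts of the 2 probes lie 1165 bases apart. Whether a shared transcript reaches both probes was not analysed here. Slc2a5, a fructose transporter, was at -0.20 ± 0.31 and -1.08 ± 0.44 with groups apart. Khk, which phosphorylates fructose, was at 7.16 ± 0.16 and 6.75 ± 0.09, and Tkfc, a triokinase of the same pathway, at 4.65 ± 0.24 and 3.96 ± 0.23, both with groups apart. Khk and Tkfc were chosen after their values were seen, and their second probes differed by -0.15 and -0.06.

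The glycolysis list as a whole was mixed. Of 21 members, 6 were lower and 3 higher at an unadjusted p under 0.05 (5.97% and 4.95% of all genes). The median was -0.04. Pdk1, a kinase that switches off pyruvate oxidation, was at 3.43 ± 0.13 and 2.63 ± 0.32, with groups apart and its 3 other probes between -0.68 and 0.46. Pfkl, liver phosphofructokinase, was higher, at 0.59 ± 0.16 and 1.02 ± 0.22, as was Pkm, the pyruvate kinase of other tissues, at 1.69 ± 0.15 and 2.15 ± 0.33. Both had groups apart, and both differences shrank without replicates 1 and 2, to 0.29 and 0.21.

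One of the 2 RefSeq promoters of Pklr is shown, since this gene led the sugar and fat lists by its p and its promoter holds a known sugar-response element. The window of 300 bases is from RefSeq (GRCm38.p6, chr3:89136373-89136672, plus strand), 5′ to 3′, and the capitals mark a match to the letters CACGNG and CNCGTG with 5 bases between them, a pattern that reads the same on both strands. These letters are a form of the carbohydrate response element, the paired E-box known from liver pyruvate kinase.
Pklr: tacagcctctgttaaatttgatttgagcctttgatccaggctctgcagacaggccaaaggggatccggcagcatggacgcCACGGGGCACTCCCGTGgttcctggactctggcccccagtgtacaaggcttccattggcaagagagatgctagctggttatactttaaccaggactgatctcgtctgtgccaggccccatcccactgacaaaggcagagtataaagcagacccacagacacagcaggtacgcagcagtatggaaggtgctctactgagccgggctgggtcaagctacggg
The match runs from 170 to 154 bases before the transcript start. The same letters occur in 15 of 32851 RefSeq promoters of this length (0.0457%). Among 57 genes of the fatty acid synthesis, glycolysis, gluconeogenesis and glycogen lists with a promoter in that table, 1 held a match, Pklr. The pattern is the one known from liver pyruvate kinase, so the match in Pklr was fixed in advance. The counts describe how rare the letters are and are no evidence about the difference of Pklr. A match describes the sequence only, and binding was not measured.

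A few enzymes of sugar storage and release were also lower. Of 21 gluconeogenesis and glycogen genes, 5 were lower and 0 higher at an unadjusted p under 0.05 (5.97% and 4.95% of all genes). Of the 5, 3 had groups apart, and the list median was -0.16. Gbe1, the glycogen branching enzyme, read 3.88, 4.06, 3.95 and 4.07 at 0 h and 3.48, 3.23, 3.56 and 3.53 at 24 h, a difference of -0.54 ± 0.14 (SE). Pygl, liver glycogen phosphorylase, was at 6.60 ± 0.13 and 6.22 ± 0.13, and Slc37a4, which carries glucose-6-phosphate into the endoplasmic reticulum, at 5.36 ± 0.12 and 4.86 ± 0.18. All 3 had groups apart. Without replicates 1 and 2 the differences were -0.44 for Gbe1, -0.31 for Pygl and -0.36 for Slc37a4, against -0.54, -0.38 and -0.50 with them. The 2 other probes for Gbe1 differed by -0.35 and -0.09. The list median without replicates 1 and 2 was 0.01, so the shift of the list rests on them.

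**Figure D2:**
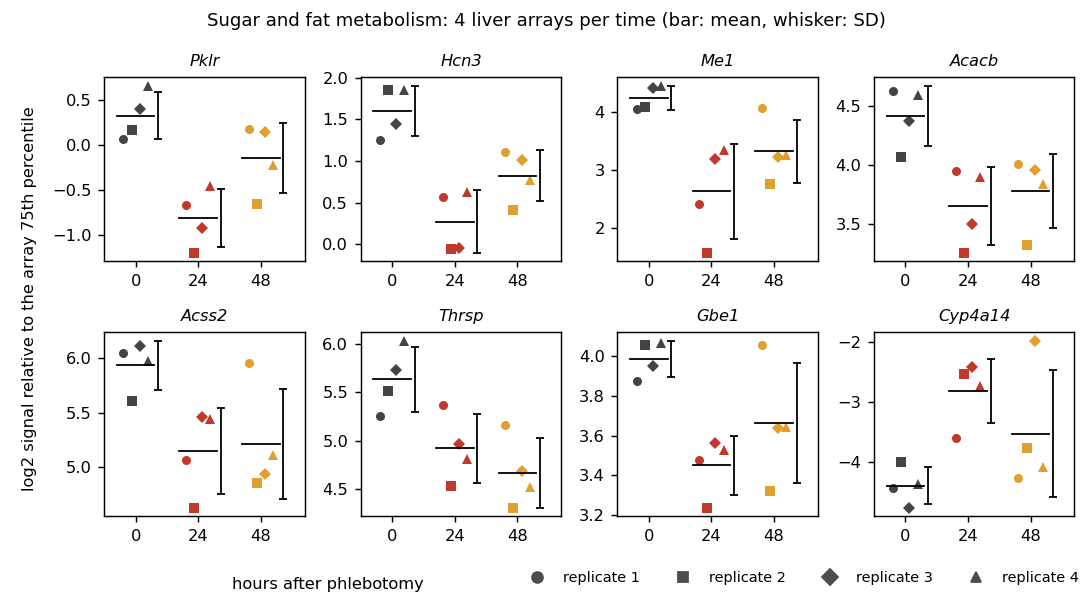
Levels (log2 relative to the array's 75th percentile) of 8 genes of sugar and fat metabolism in the 4 liver arrays at 0, 24 and 48 h. Marker shape gives the replicate, the bar the mean and the whisker the SD. Pklr, Hcn3, Me1, Acacb, Acss2 and Gbe1 have no overlap between 0 and 24 h, and Cyp4a14 lies on the higher side at 24 h.

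The 48 h levels of these genes, with the same 0 h arrays as reference, had no common pattern. The fructose transporter Slc2a5 was at -0.09 ± 0.41, above its 0 h mean. Pklr was at -0.14 ± 0.39, Hcn3 at 0.82 ± 0.31, Me1 at 3.32 ± 0.55, Thrsp at 4.67 ± 0.36 and Scd1 at 7.38 ± 0.37.

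Fat-burning genes had no common direction as a list. Of the members with the smallest p-values, 3 belong to the Cyp4a family, which oxidises the far end of fatty acids and is induced by the receptor PPARα. Of 35 fatty acid oxidation and ketogenesis genes, 5 were higher and 2 lower at an unadjusted p under 0.05 (4.95% and 5.97% of all genes). The list median was -0.04. Cyp4a14 read -4.42, -3.99, -4.76 and -4.37 at 0 h, where 2 of 4 arrays were well above background, and -3.59, -2.53, -2.41 and -2.72 at 24 h. Its groups did not overlap, and the difference was 1.57 ± 0.45 (SE). The difference of Cyp4a14 was 0.52 under normexp correction and 0.88 in the authors' values. Cyp4a10 was at 1.11 ± 0.46 and 2.16 ± 0.82, and Cyp4a31 at 2.09 ± 0.59 and 3.28 ± 0.79, both overlapping because 24 h replicate 1 read 0.97 and 2.13. Without replicates 1 and 2 the differences were 1.58 and 1.68. These genes are close relatives, so their probes may share signal. Cd36, a fatty acid transporter, was at -0.25 ± 0.45 and 0.61 ± 0.45, and its difference of 0.85 was 0.49 without replicates 1 and 2. Fgf21, a fasting hormone of the liver, was at -3.62 ± 0.94 and -2.28 ± 0.72, and Angptl4, an inhibitor of lipoprotein lipase, at 4.29 ± 0.90 and 3.19 ± 2.36. Angptl4 was low only on 24 h replicates 1 and 2, at 0.61 and 1.77, against 4.89 and 5.46 on replicates 3 and 4.

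The cholesterol and bile acid lists had small medians. Of 25 cholesterol synthesis and uptake genes, 5 were lower and 1 higher at an unadjusted p under 0.05 (5.97% and 4.95% of all genes). The cholesterol median was -0.09. With the mean over probes of a gene, 0 were lower and 1 higher, and the median was -0.02. Under median scaling 0 had groups apart. Msmo1, a sterol demethylase, was at 6.29 ± 0.09 and 5.91 ± 0.17, and Hsd17b7, a later step, at 3.97 ± 0.10 and 3.63 ± 0.22, with -0.18 without replicates 1 and 2, both with groups apart, and the 2 other probes for Msmo1 differed by -0.24 and -0.00. Hmgcs1, an early step, was at 7.49 ± 0.20 and 7.10 ± 0.19, but its second probe differed by 0.61 the other way. Of 23 bile acid genes, 3 were higher and 5 lower (4.95% and 5.97% of all genes), with a median of -0.12. Slco1a4, a bile acid and drug uptake transporter, read -0.68, -0.12, -0.17 and -0.49 at 0 h and 0.60, 0.40, 0.60 and 0.11 at 24 h, a difference of 0.79 ± 0.18 (SE; limma p = 0.0011, exact permutation p = 0.0286) with groups apart. Nr0b2, the repressor SHP that bile acids induce, was at 0.12 ± 0.65 and 1.04 ± 0.28, and Cyp8b1, which makes cholic acid, at 2.18 ± 0.23 and 1.23 ± 0.74. Cyp8b1 was lowest on 24 h replicates 1 and 2, and the difference of -0.95 was -0.36 without them.

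Acute phase genes were higher on average at 24 h, but 1 array at 0 h was already high. Of 28 members, 9 were higher and 0 lower at an unadjusted p under 0.05 (4.95% and 5.97% of all genes). The median was 0.44, yet in 0 genes did the groups separate. Saa2, serum amyloid A2, read 9.62, 6.02, 7.44 and 6.01 at 0 h and 10.01, 9.53, 9.95 and 8.69 at 24 h. The first 0 h array lay within the 24 h range and the other 3 below it, so the difference of 2.27 ± 0.77 (SE) carries an SD of 1.70 at 0 h. Saa1, a close relative chosen after its values were seen, read 9.13, 5.26, 6.78 and 5.39 at 0 h and 9.02 ± 0.68 at 24 h. Lcn2, lipocalin 2, an iron-siderophore binder, was at 2.67 ± 1.90 and 5.13 ± 0.86, Itih3, an acute phase plasma protein gene, at 7.33 ± 0.51 and 8.10 ± 0.21, and Serpina3n, a protease inhibitor gene, at 3.35 ± 0.58 and 4.22 ± 0.31. The metallothionein Mt2, which binds zinc, ran from 2.12 to 7.61 at 0 h, again with the highest value on replicate 1, and from 3.70 to 7.60 at 24 h. Without 0 h replicate 1, 19 of the 28 genes were higher at an unadjusted p under 0.05 (5.77% of all genes), and the median was 0.62. In that setting 19 had groups apart on the higher side, as did 1003 of all 19649 genes, since fewer arrays separate more easily. Without 24 h replicates 1 and 2, 2 were higher (3.28% of all genes) and the median was 0.37. The acute phase count was 5 without 0 h replicate 2 or without 0 h replicate 4 (3.94% and 3.64% of all genes). Within slides the median was 0.30, 0.36 and 0.70. The part of that 0 h array in these results beyond these values was not tested.

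Chaperones of the endoplasmic reticulum fold secreted proteins. All 21 members had a positive difference, 5 were higher and 0 lower at an unadjusted p under 0.05 (4.95% and 5.97% of all genes), 4 had groups apart (2.28% of all genes), and the median was 0.34. The count of endoplasmic reticulum chaperones was 2 with the slide as a block and 10 with only the 8 arrays compared. It was 2 without 0 h replicate 1, 24 h replicate 2 or 24 h replicate 3, 3 without 0 h replicate 3 or 4, and 11 without 0 h replicate 2, each left out alone. Without replicates 1 and 2, 3 were higher and the median was 0.40. Pdia4, a disulfide isomerase gene, read 2.50, 2.80, 2.60 and 2.60 at 0 h and 3.05, 3.20, 3.29 and 3.04 at 24 h, a difference of 0.52 ± 0.16 (SE) with groups apart. Edem1, which sends misfolded proteins to degradation, was at 3.08 ± 0.12 and 3.42 ± 0.16, also apart. Hspa5, the main chaperone BiP, was at 7.08 ± 0.54 and 7.61 ± 0.24, and Manf, a stress-induced secreted factor, at 3.71 ± 0.56 and 4.45 ± 0.28. Both overlapped because 0 h replicate 2 read 7.85 and 4.48. Among 21 genes of the integrated stress response, 5 were higher and 0 lower (4.95% and 5.97% of all genes) with a median of 0.02. Asns, asparagine synthetase, was at 0.59 ± 0.68 and 1.66 ± 0.48, and Psph, which makes serine, at 0.41 ± 0.04 and 0.71 ± 0.12 with groups apart.

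Hepcidin itself did not separate. Hamp, measured at chromosome 7, 31727490 to 31727549 (mm9), read 6.66, 7.14, 7.49 and 7.43 at 0 h and 6.39, 7.10, 6.95 and 6.20 at 24 h. The groups overlapped, and the difference was -0.52 ± 0.37 (SE; limma p = 0.189, exact two-sided permutation p = 0.114). At 48 h, against the same 0 h arrays, Hamp was at 5.42 ± 0.83. Its relative Hamp2 read 4.75, 4.45, 4.13 and 3.66 at 0 h and 4.59, 4.76, 2.92 and 3.01 at 24 h. Replicates 3 and 4 were below all 0 h arrays and replicates 1 and 2 within or above them, so the difference was -0.42 with all arrays and -1.28 without replicates 1 and 2.

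The pathway upstream of hepcidin held counts near those of all genes. Of 22 hepcidin regulation genes, 2 were higher and 2 lower at an unadjusted p under 0.05 (4.95% and 5.97% of all genes), with a median of -0.10. Smad7, a feedback inhibitor that iron and BMP signals induce, read -0.50, -0.07, 0.06 and 0.06 at 0 h and -0.84, -0.40, -0.69 and -0.67 at 24 h, a difference of -0.54 ± 0.19 (SE) with overlapping groups. Atoh8, another target of the pathway, was at -0.14 ± 0.26 and -0.61 ± 0.36, and Id1, a further target, at 0.83 ± 0.48 and 0.62 ± 0.39. Fgl1, a secreted liver factor reported to lower hepcidin, was at 6.79 ± 1.35 and 8.16 ± 0.24. Its 0 h arrays followed the acute phase genes, with 8.45 on replicate 1 against 5.60 to 7.35 on the others, and a second probe differed by only 0.16.

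Among 18 iron uptake, storage and export genes, 4 were higher and 1 lower (4.95% and 5.97% of all genes) with a median of -0.03. Slc39a14, a zinc and iron importer, was at 2.98 ± 0.24 and 3.37 ± 0.17, and Tfrc, the transferrin receptor, at -1.02 ± 0.65 and -0.16 ± 0.52, both overlapping. The difference of Tfrc was 0.86, and 0.53 without replicates 1 and 2. Trf, transferrin, was at 9.82 ± 0.11 and 9.89 ± 0.10. Gdf15, a stress hormone of the TGF-β family, was higher on 3 of 4 arrays than on any array at 0 h, with 0.15, 1.33, 0.18 and -0.30 at 0 h and 1.64, 1.65, 1.19 and 2.21 at 24 h. Its difference was 1.33 ± 0.33 (SE; limma p = 0.00185, exact permutation p = 0.0571) and 1.36 without replicates 1 and 2.

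**Figure D3:**
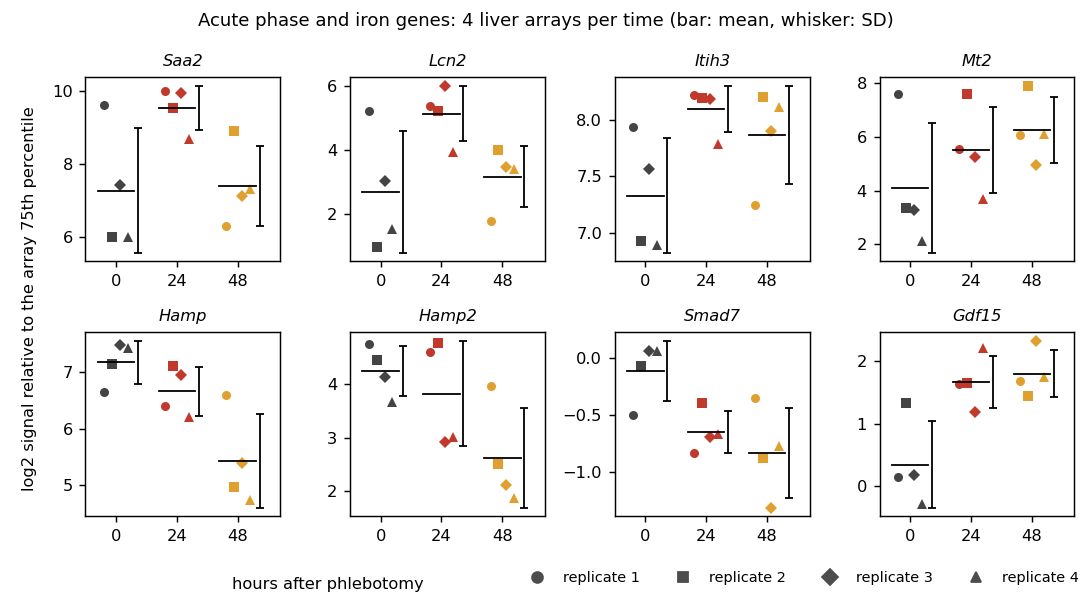
Levels (log2 relative to the array's 75th percentile) of 4 acute phase and 4 iron-related genes in the 4 liver arrays at 0, 24 and 48 h, with marker shape for the replicate, a bar for the mean and a whisker for the SD. The circle of 0 h replicate 1 sits with the 24 h arrays in Saa2, Lcn2 and Mt2, and Hamp overlaps between 0 and 24 h.

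The 2 arrays that stood apart carried a set of differences of their own. Genes higher in males and driven by growth hormone pulses were low on them: of 25 measured, 15 were lower and 0 higher at an unadjusted p under 0.05, against 5.97% of all genes. The list medians at 24 h were -0.78 and -0.75 on replicates 1 and 2 and -0.16 and -0.10 on replicates 3 and 4, and lay between -0.15 and 0.11 at 0 h. Without the 2 arrays 1 of the 25 was lower and the median went from -0.48 to -0.14. The count of male-biased and growth hormone-responsive genes was 4 without 24 h replicate 1 or without 24 h replicate 2, 7 without 0 h replicate 2 and 9 with only the 8 arrays. Within slides the median was -0.82, -0.63 and -0.18.

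Elovl3, a fatty acid elongase gene that is far higher in male liver, read 5.42, 5.94, 6.14 and 6.65 at 0 h and 1.77, 2.90, 5.42 and 6.09 at 24 h. Cyp7b1, an oxysterol hydroxylase, read 5.11, 6.57, 5.53 and 6.46 at 0 h and 2.40, 2.44, 5.51 and 5.67 at 24 h. In both, replicates 1 and 2 were far below every 0 h array and replicates 3 and 4 within or next to the 0 h range. The differences without these arrays were -0.28 for Elovl3 and -0.33 for Cyp7b1. Both genes were chosen after their values were seen. Mup1, a major urinary protein, was at 10.18 ± 0.16 at 0 h and 9.68 ± 0.39 at 24 h, where replicates 1 and 2 read 9.26 and 9.43. The Mup genes are near-identical copies, so their probes cannot be told apart with confidence. Cyp2f2, an airway and liver cytochrome, depended less on the 2 arrays. It was at 8.37 ± 0.18 at 0 h and 7.91 ± 0.11 at 24 h with groups apart. Its difference of -0.46 was -0.39 without the 2 arrays.

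Female-biased genes as a list were high on the same arrays. Of 22, 13 were measured, 6 were higher and 0 lower at an unadjusted p under 0.05 (4.95% and 5.97% of all genes), and the array medians at 24 h were 0.95, 0.86, 0.21 and 0.12. Without replicates 1 and 2, 2 were higher and the median went from 0.56 to 0.23, and within slides it was 1.04, 1.05 and 0.42. The 9 others, among them Cyp2b9 and Sult2a1, were not well above background on all arrays of any liver group. With no filter on dim probes, 7 of the 22 were higher and the median was 0.30. Among the 12 members above background on all 8 arrays, 5 were higher and the median was 0.42. Slc22a26, an organic anion transporter gene, read -1.09, -4.12, -2.43 and -4.09 at 0 h and 1.39, 0.32, -1.29 and -1.42 at 24 h. Abcd2, a peroxisomal fatty acid transporter, read -0.80, -1.01, -2.68 and -2.48 at 24 h and -2.95 ± 0.26 at 0 h. Leaving out replicates 1 and 2, the difference of Slc22a26 went from 2.68 to 1.57 and that of Abcd2 from 1.21 to 0.37. Cyp4a10, a higher member of this list given above with the fat-burning genes, was not highest on these arrays. Replicates 1 and 2 held its 2 lowest values at 24 h, with 0.97 on replicate 1. The difference of Cyp4a10 was larger without them, at 1.58. Fmo2, a flavin monooxygenase, was at -1.71 ± 0.15 and -1.07 ± 0.26 with groups apart, and the difference of 0.65 was 0.52 without the 2 arrays.

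H19, a long noncoding RNA that is abundant in fetal liver and fades after birth, had the largest SD at 24 h. It read -3.12, -3.24, -4.05 and -4.13 at 0 h and 2.29, 1.92, -3.34 and -1.95 at 24 h, so that replicates 1 and 2 lay far above every 0 h array. The difference of H19 was 3.36, and 0.99 without them. Gpc3, a fetal growth regulator, read -1.69, -2.09, -2.85 and -3.36 at 24 h and -3.60 ± 0.16 at 0 h, and Meg3, an imprinted noncoding RNA, read -0.96, -0.21, -1.33 and -1.68 at 24 h and -2.20 ± 0.40 at 0 h. Without the 2 arrays the difference was 0.49 for Gpc3, and that of Meg3 went from 1.16 to 0.70. In a list of 12 fetal and early postnatal growth genes that was put together after these values were seen, 9 were measured and all 9 had a positive difference. Of these genes, 8 were above background on all 8 arrays, with a median difference of 0.69. Igf2, Dlk1 and Lin28b were not well above background on all arrays of any liver group. The list median was 1.44 and 1.51 on replicates 1 and 2 and 0.27 and 0.19 on replicates 3 and 4, and the median difference went from 0.68 to 0.20 without the former. Such a list describes these arrays and is no separate evidence.

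Mitosis genes were also high on these 2 arrays. The mitosis list, with 16 of 28 members measured, had medians of 1.26, 1.03, -0.44 and 0.07 at 24 h and between -0.33 and 0.34 at 0 h. In limma 0 of the 16, and 1 of 26 DNA replication genes, reached an unadjusted p under 0.05, and that 1, the replication factor gene Mcm10, was on the lower side at 24 h with a difference of -0.58. The mitosis median difference was 0.48, and -0.29 without replicates 1 and 2. The arrays at 24 h lay on both sides of the 0 h arrays. Mcm6, part of the replication helicase, read 2.07, 1.82, 0.41 and 1.03 at 24 h and 0.68 ± 0.20 at 0 h, and Birc5, survivin, 0.46, 0.54, -1.71 and -1.06 at 24 h and -0.97 ± 0.27 at 0 h. Within slides the mitosis median was 1.25, 1.36 and -0.70, so its sign differed between slides. Trp63, a p53 relative, read 2.94, 2.64, 1.42 and 1.30 at 24 h and 1.08 ± 0.18 at 0 h. Without the 2 arrays the differences were 0.04 for Mcm6, -0.41 for Birc5 and 0.28 for Trp63, against 0.66, 0.53 and 0.99 with them. What the mice or the samples behind the 2 arrays shared was not tested.

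**Figure D4:**
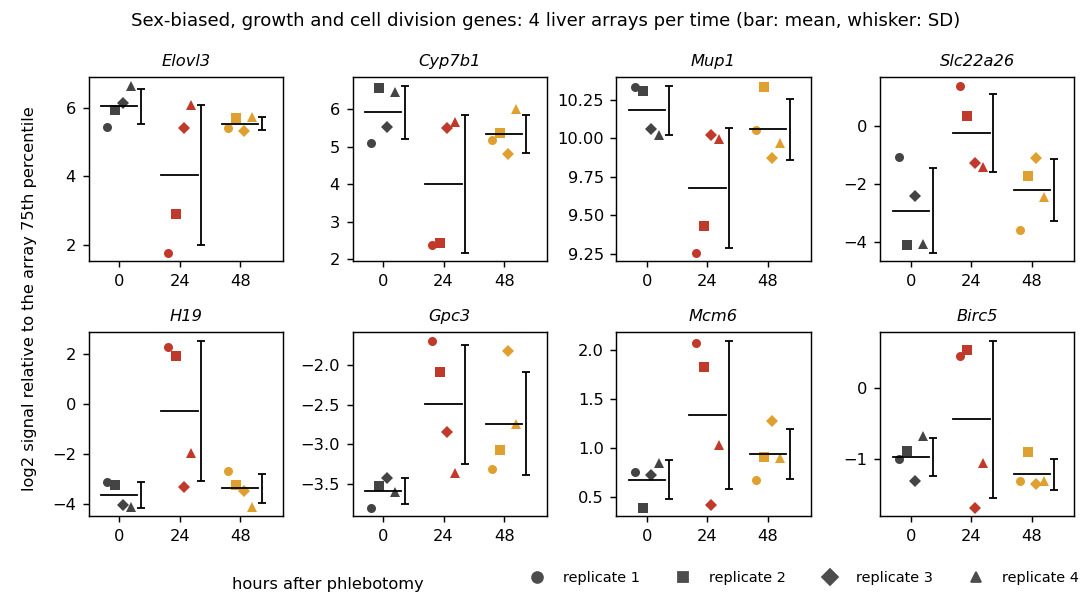
Levels (log2 relative to the array's 75th percentile) of 8 sex-biased, growth and cell division genes in the 4 liver arrays at 0, 24 and 48 h, with marker shape for the replicate, a bar for the mean and a whisker for the SD. At 24 h the circle and square (replicates 1 and 2) lie away from the diamond and triangle, most widely in H19, Cyp7b1 and Elovl3.

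The respiratory chain list had a median below that of all genes, and the other lists given here had medians from -0.10 to 0.21. Of 38 respiratory chain genes, 14 were lower and 0 higher at an unadjusted p under 0.05 (5.97% and 4.95% of all genes), 6 had groups apart (3.21% of all genes), all 38 differences were negative, and the median was -0.16. The array medians at 24 h were -0.28, -0.24, -0.05 and -0.10. Within slides the respiratory chain median was -0.275, -0.136 and -0.16. Without replicates 1 and 2 only 1 member was lower, and the median was -0.08. Under median scaling 5 respiratory chain genes were lower and 0 had groups apart. The count was also 5 without 0 h replicate 4 or 24 h replicate 1, 6 without 24 h replicate 2 and 7 without 0 h replicate 2, each left out alone. Ndufa5, a complex I subunit, was at 6.35 ± 0.15 and 6.07 ± 0.04, and Cyc1, cytochrome c1, at 6.77 ± 0.11 and 6.47 ± 0.16, both with groups apart. The difference of Cyc1 went from -0.30 to -0.16 without the 2 arrays. Of 27 proteasome genes, 3 were lower and 0 higher (5.97% and 4.95% of all genes), with a median of -0.10. The cytosolic ribosomal proteins (37 members), interferon-stimulated genes (28), heat shock genes (18) and MHC class II genes (9) had 0 members at an unadjusted p under 0.05 in limma, with medians of -0.01, -0.06, -0.01 and 0.21. Without replicates 1 and 2, 8 of the 28 interferon-stimulated genes were lower (2.32% of all genes), with a median of -0.25. Within slides the interferon-stimulated median was 0.242, 0.261 and -0.545, so its sign differed between slides.

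Detoxification genes gave a mixed list. Of 37 drug metabolism genes, 4 were higher and 12 lower at an unadjusted p under 0.05 (4.95% and 5.97% of all genes). The median was -0.05. Without replicates 1 and 2 the counts were 2 higher and 1 lower (3.28% and 2.32% of all genes). Por, the reductase that serves all microsomal cytochromes, was at 4.59 ± 0.18 and 4.97 ± 0.06 with groups apart, and Ugt2b1, a glucuronidating enzyme, at 4.52 ± 0.26 and 3.60 ± 0.58. The difference of Ugt2b1 went from -0.92 to -0.46 without the 2 arrays. Of 26 NRF2 and glutathione genes, 6 were lower and 1 higher (5.97% and 4.95% of all genes). Srxn1, sulfiredoxin, was at 3.19 ± 0.15 and 2.86 ± 0.06, and Gss, glutathione synthetase, at 3.97 ± 0.13 and 4.49 ± 0.19, both with groups apart. Prodh, which starts proline breakdown, was at 5.19 ± 0.15 and 4.61 ± 0.37 with groups apart and a difference of -0.59, or -0.28 without the 2 arrays. It belongs to 30 amino acid and urea cycle genes, of which 2 were lower and 0 higher (5.97% and 4.95% of all genes).

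Single genes of the hypoxia, glucocorticoid and clock lists stood out from lists without a common direction. Of 22 hypoxia genes, 5 were higher and 1 lower (4.95% and 5.97% of all genes), with a median of 0.02. The member with the smallest p was the lower one, Pdk1, given above with the glycolysis genes, at -0.80. Ankrd37, a hypoxia-induced gene, read -2.48, -3.61, -2.75 and -3.39 at 0 h and -1.04, -2.13, -2.06 and -2.40 at 24 h, a difference of 1.15 ± 0.32 (SE), and P4ha2, a collagen prolyl hydroxylase, was at -0.81 ± 0.17 and -0.40 ± 0.11, both with groups apart. Of 22 glucocorticoid targets, 4 were higher and 3 lower (4.95% and 5.97% of all genes). Fkbp5, a chaperone that glucocorticoids induce, read 1.96, 2.01, 1.78 and 1.72 at 0 h and 2.53, 2.67, 2.42 and 2.15 at 24 h, a difference of 0.58 ± 0.12 (SE; limma p = 0.000609, exact permutation p = 0.0286) with groups apart. A second probe for Fkbp5 differed by 0.27. The same list's median was 0.58 on 0 h replicate 1 and between -0.39 and -0.10 on the other 0 h arrays. Klf9, another target, was lowest on replicates 1 and 2 at 24 h, at 1.87 and 1.97. Its replicates 3 and 4 at 24 h read 2.787 and 2.726, next to the 0 h range of 2.775 to 3.10, so 3 arrays lay below all 0 h arrays. Of 18 clock genes, 1 was higher and 1 lower (4.95% and 5.97% of all genes). Dbp, a daily rhythmic transcription factor gene, was at -0.33 ± 0.28 at 0 h and 0.84 ± 0.56 at 24 h, where replicate 4 read 0.00. Egr1, an immediate early gene, was at 1.01 ± 0.56 and 2.71 ± 1.40, with 4.56 on 24 h replicate 1 and a difference of 1.71, or 0.89 without replicates 1 and 2. Enho, which encodes the secreted peptide adropin, was at 4.92 ± 0.36 and 5.53 ± 0.13 with groups apart.

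Markers of cells other than hepatocytes were measured beside these results. In bulk tissue, fewer cells of a type and less RNA per cell cannot be told apart. Some markers of the mesothelium, the thin layer that covers the liver, were higher. Rspo1, a Wnt enhancer, read -2.85, -2.60, -1.90 and -2.29 at 0 h and -1.37, -1.26, -0.92 and -1.68 at 24 h, group means of -2.41 and -1.31 with an SE of the difference of 0.21 (limma p = 0.000238, exact permutation p = 0.0286) and the difference was 1.12 without replicates 1 and 2. Msln, mesothelin, was at -1.15 ± 0.35 and -0.09 ± 0.42, and Pdpn, podoplanin, at -2.96 ± 0.36 and -1.93 ± 0.45, both with groups apart. Upk1b, a uroplakin, was above background on all 4 arrays at 24 h and on none at 0 h, at least 1.79-fold higher under the main settings. Over the alternative settings that kept all 8 arrays, the lowest log2 difference of Upk1b was 0.26. In a list of 12 mesothelial markers that was put together after these values were seen, 10 passed the filter on dim probes, 3 of them not above background on all 8 arrays. Of the other 7 above background on all 8 arrays, 5 were higher and 4 had groups apart. The list was chosen for this pattern, so these counts describe the arrays and are no separate evidence. The summed level of all 10 was 3.33 to 5.17 times the 75th percentile at 0 h and 5.44 to 7.48 at 24 h. That sum includes the 3 members not above background on all 8 arrays and is no separate evidence either. Krt19 and Efemp1, also on that list, differed by 0.25 and 0.09 and were likewise chosen after their values were seen. How much liver surface each piece of tissue held was not tested.

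Blood cell markers gave summed levels that overlapped for neutrophils and platelets and did not for red cells and B cells. Neutrophil markers (10 of 14 measured) had array medians from -1.06 to 1.89 at 0 h and from -0.11 to 1.43 at 24 h, and their summed level was 85.1 to 115.8 and 92.8 to 108.5. Within slides the neutrophil median was 2.28, 1.07 and -1.32. Platelet markers (7 of 11) had summed levels of 1.04 to 1.87 and 1.82 to 2.97, with the highest on 24 h replicates 1 and 2, and Pf4, platelet factor 4, was at 0.01 ± 0.43 and 0.67 ± 0.36, a difference of 0.66, or 0.35 without those arrays. The summed level of B and plasma cell markers (10 of 12) was 2.84 to 3.12 at 0 h and 3.21 to 4.72 at 24 h. The summed level of erythroid markers (11 of 17) was 187.4 to 228.6 at 0 h and 266.7 to 280.1 at 24 h, without overlap. Most of that sum was Hba-a1. Of the 11 members, 4 were higher and 3 lower at an unadjusted p under 0.05 (4.95% and 5.97% of all genes). Within that list the globins were higher, with Hba-a1 at 7.44 ± 0.12 and 7.91 ± 0.04 and Hbb-b2 at 2.77 ± 0.19 and 3.31 ± 0.13. Car1, a red cell carbonic anhydrase, was lower at -0.77 ± 0.18 and -1.38 ± 0.29, as was Klf1, the erythroid master regulator, at -2.63 ± 0.22 and -3.04 ± 0.03. All 4, like Pf4, had groups apart and were chosen after their values were seen, the globin probes can share signal between gene copies, and other members, among them Gata1, Epb42, Sptb and Trim10, were not well above background on all arrays of any liver group. The median differences of stellate and fibroblast markers, endothelial markers and Kupffer cell markers were 0.22, -0.02 and 0.05. The stellate and fibroblast value was -0.06 without 24 h replicates 1 and 2.

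Other genes were above background on all arrays at 24 h and on none at 0 h. Under the main settings Rptoros, a noncoding RNA, was at least 2.84-fold higher, and Cenpu, a centromere protein gene, at least 1.49-fold. These folds did not hold under every setting. Over the alternative settings that kept every array compared, the lowest log2 difference was 0.825 for Rptoros and 0.247 for Cenpu. No named gene with groups apart showed the opposite pattern. Other genes with large differences upwards were Cpe, a peptide-processing enzyme, at -2.82 ± 0.43 and -1.69 ± 0.58, with a difference of 1.13, or 0.63 without 24 h replicates 1 and 2, and Gpx3, plasma glutathione peroxidase, at -1.37 ± 0.34 and -0.32 ± 0.46. Slc26a6, an anion exchanger, was lower at 0.24 ± 0.13 and -0.22 ± 0.09. These 3 genes had groups apart.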

How the data were processed

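RNA of each sample was hybridised to 1 one-colour Agilent array. The deposited scanner intensity values were made with Agilent Feature Extraction 10.10.1.1, per the file headers; the submitters' processing notes also name limma, with no version. The authors' deposited processed values are on a log2 scale, and their 12 marrow columns were not used. Here, log2 processed signal minus the 75th percentile of each array was taken, spots of a probe were averaged, and outlier spots were left out. A probe was kept if every array of 1 or more liver groups of 4 read it well above background, and the brightest kept probe stood for a gene. The 12 liver arrays were fitted with limma 3.58.1 in R 4.3.3, with Benjamini-Hochberg adjustment over 19649 genes and a threshold of 0.05. The code was tested on simulated data. Where nothing says that samples came from separate cages or days, p-values measure only the spread between these arrays, whose number limits the precision.

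Members and gene lists were chosen with earlier results of these data known, and lists carry no test. Genes were named by a rule: Erfe; among genes above background on all 8 arrays with groups apart, the 15 largest differences each way and the 10 smallest p-values; the 5 largest each way among genes above background in only 1 group; the 4 smallest p-values and the highest level of each list; Hamp, Hamp2, Gdf15, Tfrc and Id1; and the 5 largest SDs in each group. "At least" folds set the mean of the bright group against, per array, the dim probe's signal or, if higher, the weakest signal of any probe called well above background. They hold under the main settings only. Alternatives were quantile, median and normexp (offset 50) settings, the authors' values, probe filters and summaries, only the 8 arrays, slide and replicate blocks, robust variance, array weights and leaving out each replicate. Within-slide values and leaving out 24 h replicates 1 and 2 together were chosen after seeing the data. Replicate numbers did not pair the samples. Coordinates are mm9, per the file headers; exon and UTR positions were not analysed here.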

Additional observations from a re-analysis of the deposited data

Results flagged for a closer look

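In 15 of 228 gene groups of 4 arrays and 3 of 94 list groups, 1 array lay far from the other 3 (Dixon's test); chance gives about 5%. At 0 h, replicate 1 read -4.85 for Cenpu (others -5.68 to -5.54) and 5.79 for Glul (5.52 to 5.56). Replicate 2 read 0.98 for Lox (-4.29 to -3.93), 6.17 for Msmo1 (6.33 to 6.36), -0.63 for Pf4 (0.18 to 0.30), 0.35 for Pfkl (0.65 to 0.70) and 7.99 for Scd1 (8.09 to 8.10), and its median for T and NK cell markers was -0.42 (0.05 to 0.12). Replicate 3 read 5.18 for Slc37a4 (5.40 to 5.43).

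At 24 h, replicate 1 read -1.15 for Atoh8 (-0.46 to -0.36), 2.52 for Ifitm1 (2.25 to 2.29) and 1.20 for Mturn (-3.22 to -3.09). Replicate 2 read -3.35 for Fgf21 (-1.98 to -1.83), and its hypoxia median was 0.15 (0.03 to 0.04). The muscle and fat marker median of replicate 3 was -0.02 (-0.24 to -0.21). Replicate 4 read 0.00 for Dbp (others up to 1.13), 7.79 for Itih3 (8.19 to 8.22) and 0.18 for Mirt1, a noncoding RNA (-2.67 to -2.21).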

How the results depend on the processing

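The number of genes called was 0 in 20 of 21 alternatives and 2 without liver 24 h replicate 4, namely Ihh (adjusted p = 0.0219 in limma) and Ttbk1 (adjusted p = 0.0428), both lower. Over the leave-one-out settings, calls ran from 0 to 2, genes at an unadjusted p under 0.05 from 633 to 1268 higher and from 697 to 1477 lower, and genes with groups apart from 602 to 1003 higher and from 809 to 1293 lower. The lowest counts at an unadjusted p came without 24 h replicate 2. Without 24 h replicates 1 and 2 together, 644 genes were higher and 455 lower at that level, and 1530 and 1405 had groups apart, since fewer arrays separate more easily. Median scaling left 301 higher and 310 lower genes with groups apart; the cause was not tested. With a replicate block, 925 were higher and 1046 lower with 0 calls (smallest adjusted p = 0.383 in limma); same-numbered arrays correlated at 0.121, -0.114, -0.267 and 0.095, so the numbers share only a name. With the slide as a block, 1168 were higher and 1550 lower (smallest adjusted p = 0.151). Of 114 genes, 108 kept their sign under all settings tried. The exceptions were Angptl4 (0.89), Birc5 (-0.41) and Xlr4b (0.37) without 24 h replicates 1 and 2, Hmgcs1 (0.11) with the mean over probes, Lox (0.57 without 0 h replicate 2, with -1.18 as the lowest value of its leave-one-out settings), and Trf (-0.03 with normexp, -0.01 with the authors' values); the cause was not tested. Genes near background have wide errors.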

Other observations

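Some genes had a wide spread within a group. Xlr4b, an X-linked lymphocyte-regulated gene, read -2.36, -1.12, 3.13 and -2.52 at 24 h and -0.64, 0.67, 0.72 and -1.05 at 0 h. Mturn, a neural progenitor gene, read 1.20 on 24 h replicate 1 and -3.19, -3.08 and -3.21 on the others. Lox, which cross-links collagen, read 0.98 on 0 h replicate 2 and -4.29, -3.93 and -4.08 on the others. Glul, glutamine synthetase of the cells around the central vein, was low on 24 h replicates 1 and 2, at 4.45 and 4.63, against 5.59 and 5.54 on replicates 3 and 4 and 5.61 ± 0.12 (SD, n = 4) at 0 h.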
